A study of Mus musculus with 36 samples.

Results

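The miR-34 and miR-449 family was followed across mouse prostates that carried or lacked the T antigens of SV40, through 7 mature strands chosen by name: mmu-miR-34a-5p, mmu-miR-34b-5p, mmu-miR-34b-3p, mmu-miR-34c-5p, mmu-miR-34c-3p, mmu-miR-449a-5p and mmu-miR-449a-3p. These are 7 of the 1963 mouse miRNAs listed in the deposited tables, and 6 of them passed the filter on low values that 514 miRNAs passed (a mean of at least 1 CPM over the 36 libraries, CPM being the reads of a miRNA divided by those of all miRNAs of the library, times 1000000). miR-449a-3p did not pass. Small RNA was sequenced from ventral and lateral prostate lobes of male, littermate-matched mice of a strain labelled C56NL/6N. The 12 groups of 3 libraries each were WT (ELAC2+/+), KO (ELAC2-/-, deleted in the prostate by Cre recombinase under the probasin promoter) and A537T (a threonine for alanine substitution in ELAC2, homozygous in the whole body), each without TRAMP or heterozygous for the TRAMP transgene, at 10 and at 30 weeks of age. ELAC2 is the enzyme that trims the 3' ends of tRNA precursors, and TRAMP places the T antigens of SV40 under the same probasin promoter, which is active mainly in prostate epithelium. The labels number 3 samples a group without naming animals, and the study describes its replicates as separate mice. ELAC2 itself, p53 and the T antigens are not measured by a miRNA table.

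p53 is a transcription factor that answers DNA damage and oncogene stress, and Mir34a and the Mir34b and Mir34c pair are among its best known direct miRNA targets. The 5p strands of the family pair through a shared seed with mRNAs of cyclins, cyclin-dependent kinases and MET, and forced expression of miR-34a arrests cells in G1. Mir449a lies in the host gene Cdc20b, is known as a target of E2F transcription factors and is abundant, with miR-34b and miR-34c, in ciliated epithelia and in the testis. The large T antigen binds and inactivates both p53 and the retinoblastoma protein, the inhibitor of E2F. These are background and were not measured here.

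The mature sequences are shown because the shared seed is what makes the members 1 family. Sequences and coordinates are from RefSeq on GRCm38.p6, 5' to 3', with the seed (bases 2 to 8) in capitals. miR-34c-5p is not shown because the source held no mature entry for it, nor for miR-449b. Neither could enter the count of seeds below.
miR-34a-5p: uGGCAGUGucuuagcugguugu
miR-34b-5p: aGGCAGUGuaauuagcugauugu
miR-449a-5p: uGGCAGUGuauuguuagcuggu
miR-449c-5p: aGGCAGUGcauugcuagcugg
miR-34b-3p: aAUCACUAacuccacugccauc
miR-34c-3p: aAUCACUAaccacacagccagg
miR-449a-3p: cAGCUAACaugcgacugcucuc
The GGCAGUG seed was found in 4 of the 1679 mature miRNA names of the RefSeq table, all 4 of them 5p strands of this family. miR-34a-5p and miR-449a-5p were identical at 15 of 22 ungapped positions, the first difference being at position 10. The AUCACUA seed was held by 2 names, miR-34b-3p and miR-34c-3p, which were identical at 17 of 22 positions.

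The hairpins lie at 3 places. Mir34a is on the plus strand of chromosome 4, from 150068454 to 150068555, and its last bases overlap the unclassified transcript Gm37795. Mir34c (chromosome 9, 51103034 to 51103110) and Mir34b (chromosome 9, 51103562 to 51103645) are both on the minus strand, 452 bases apart, inside the span of Btg4 but on the strand opposite to it and outside its exons in GENCODE vM21. Mir449a (chromosome 13, 113037534 to 113037624) is on the plus strand in an intron of Cdc20b, 1443 bases downstream of Mir449c.

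The libraries held 655455 to 21870210 miRNA reads. The lowest total belonged to library 35 (A537T at 10 weeks), in which 1 read was worth 1.53 CPM, and the next lowest was 4544257. The skeletal muscle miRNAs miR-1a-3p, miR-133a, miR-133b, miR-206 and miR-499 (6 strands) took 0.736% to 30.7% of the reads of the 9 non-TRAMP libraries at 10 weeks, with all 3 WT libraries at 9.73% or more, and 0.187% to 3.09% of the reads of the other 27 libraries. The 7 epithelial miRNAs of the miR-200 family, miR-203 and miR-205 were detected in every library at a summed 3.91% to 10.0% of reads. The 12 miRNAs of the X-linked testis and epididymis cluster summed to at most 24.95 CPM. In bulk tissue, fewer cells of a type and less miRNA per cell cannot be told apart.

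Among the members miR-34a-5p was the most abundant, with a mean of 161 CPM over the 36 libraries and rank 135 of all miRNAs. miR-34c-5p followed with 84.9 CPM, then miR-449a-5p with 10.2 CPM, miR-34b-3p with 8.07 CPM, miR-34b-5p with 5.37 CPM and miR-34c-3p with 3.61 CPM. miR-449a-3p averaged 0.156 CPM, with 77 reads in all, found in 10 libraries. The 6 more abundant members had reads in every library.

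**Figure D1:**
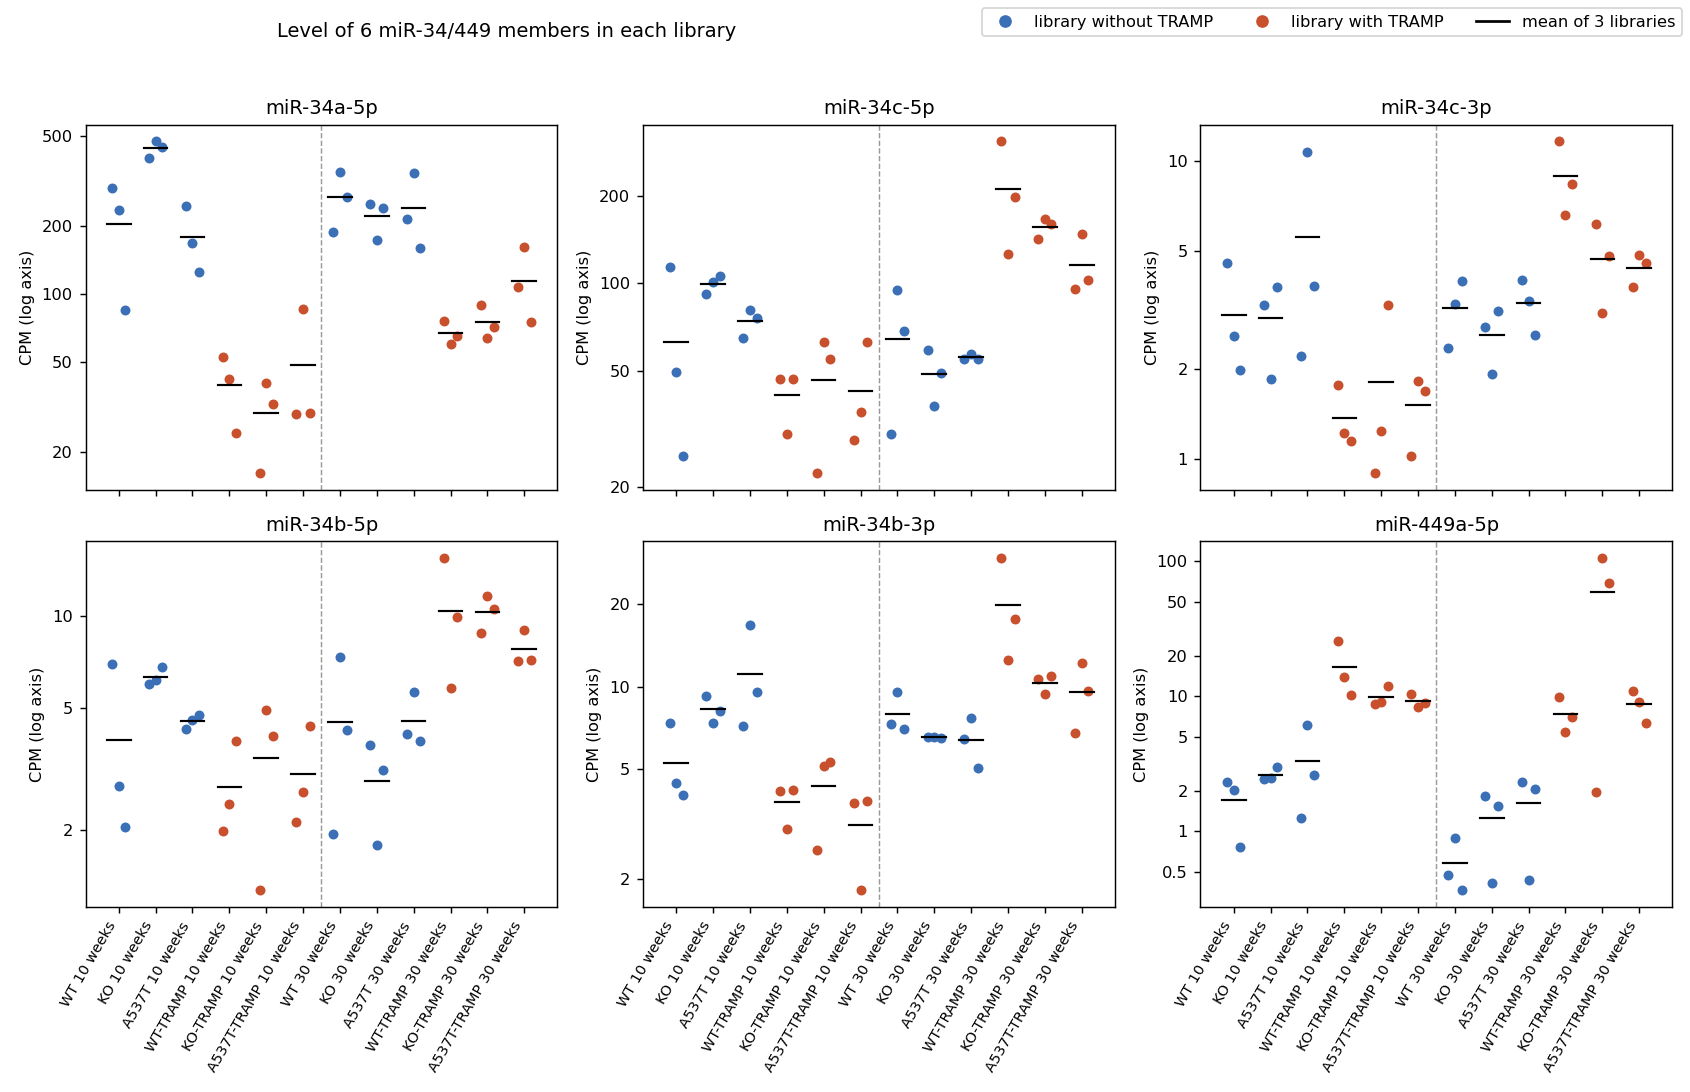
Level of each of 6 members in CPM (vertical log axes, each panel with its own range) in the 12 groups; each point is a library, black lines are means of 3 libraries, blue is without and orange with TRAMP, and the dashed line separates 10 from 30 weeks. miR-34a-5p was lower with TRAMP at both ages, the 4 strands of Mir34b and Mir34c were lower at 10 and higher at 30 weeks, and miR-449a-5p was higher at both, with 2 KO-TRAMP libraries at 106 and 69.3 CPM.

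miR-34a-5p fell with TRAMP at both ages. At 10 weeks its level without TRAMP was 295, 235 and 85.3 CPM in WT, 402, 475 and 448 CPM in KO and 246, 168 and 125 CPM in A537T. With TRAMP it was 52.6, 41.9 and 24.1 CPM in WT-TRAMP, 16.1, 40.3 and 32.7 CPM in KO-TRAMP and 29.3, 85.8 and 29.8 CPM in A537T-TRAMP. Of the 9 TRAMP libraries 8 lay below every non-TRAMP library, and the other one (library 5, 85.8 CPM) lay just above the lowest of them (library 30, 85.3 CPM). The mean over the 9 non-TRAMP libraries, 276 ± 141 CPM (SD, n = 9), was 7.03 times the mean of 39.2 ± 20.5 CPM over the TRAMP libraries. The TRAMP effect as the mean of the 3 lines was -2.73 ± 0.25 on the log2(CPM + 1) scale (limma, standard error, adjusted p = 4.43e-10). In that comparison 5 of the 6 members were called lower (an adjusted p under 0.05) and 1, miR-449a-5p, higher. Of all 514 miRNAs 65.4% were called, 39.9% lower and 25.5% higher, and the median change of all was -0.28, beside -0.82 for the 6 members.

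The skeletal muscle reads moved with this comparison, being highest in the non-TRAMP libraries at 10 weeks. Among the non-TRAMP libraries at 10 weeks miR-34a-5p was lowest where they were highest, at 85.3 CPM in library 30 with 30.7% muscle miRNA reads. Within KO and within A537T the library with most muscle reads held most miR-34a-5p, 475 CPM at 6.51% and 246 CPM at 13.7%. With the muscle miRNAs left out of the library sum, which changes only the divisor, the effect was -2.88 (adjusted p = 8.67e-11). Without the 3 libraries above 10% muscle reads (29, 30 and 34) it was again -2.88. That alternative was chosen after seeing the data, and in it library 28 alone stood for WT without TRAMP at 10 weeks. In the KO line, where 2 of the 3 non-TRAMP libraries held 0.773% and 0.736% muscle reads, the effect was -3.94 ± 0.43. The part of muscle tissue in the effect was not tested.

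At 30 weeks miR-34a-5p was at 188, 347 and 269 CPM in WT, 249.7, 173 and 239.7 CPM in KO and 214, 345 and 159.9 CPM in A537T. With TRAMP it was at 76.1, 60.1 and 65.3 CPM in WT-TRAMP, 89.3, 63.6 and 71.8 CPM in KO-TRAMP and 108, 161 and 74.9 CPM in A537T-TRAMP. Again 8 of 9 TRAMP libraries were below all non-TRAMP libraries, the exception being an A537T-TRAMP library. The TRAMP effect was -1.51 ± 0.25 (adjusted p = 1.3e-05), a 2.84-fold difference of the means. At this age 1 member was called lower and 5 were called higher, beside 45.1% of all miRNAs, 16.3% lower and 28.8% higher. The median change was 0.07 over all miRNAs and 0.92 over the 6 members. The effect ranged from -1.61 to -1.41 when each library was left out in turn.

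Ordered by mean level, KO at 10 weeks stood first for miR-34a-5p with 442 ± 37.4 CPM (SD, n = 3), and its 3 libraries did not overlap those of the next group. The next 5 places were the other non-TRAMP groups, from WT at 30 weeks (268 ± 79.3 CPM) to A537T at 10 weeks (179.6 ± 61.1 CPM), each overlapping its neighbour. The 3 TRAMP groups at 30 weeks followed, from 115 to 67.2 CPM, and the 3 TRAMP groups at 10 weeks came last, from 48.3 to 29.7 CPM, again with overlap between neighbours.

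The 4 strands of Mir34b and Mir34c, transcribed together from chromosome 9, fell with TRAMP at 10 weeks and rose with it at 30 weeks. At 10 weeks miR-34c-5p, the most abundant of them, was at 113, 49.9 and 25.6 CPM in WT, 91.8, 101 and 106 CPM in KO and 65.0, 80.9 and 76.3 CPM in A537T. With TRAMP it was at 46.9, 30.4 and 46.9 CPM in WT-TRAMP, 22.3, 62.8 and 55.02 CPM in KO-TRAMP and 28.9, 36.3 and 63.1 CPM in A537T-TRAMP. The groups overlapped, the WT libraries alone running from 25.6 to 113 CPM, and the effect was -0.81 ± 0.24 (adjusted p = 0.00553).

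The other 3 strands of the locus changed by similar amounts at 10 weeks. miR-34b-3p went from 4.03 to 16.8 CPM without TRAMP to 1.82 to 5.31 CPM with it, an effect of -0.91 ± 0.17 (adjusted p = 6.88e-05). miR-34c-3p went from 1.85 to 10.7 CPM to 0.893 to 3.28 CPM, with 8 of 9 TRAMP libraries below every non-TRAMP one, an effect of -0.82 ± 0.21 (adjusted p = 0.00109). Its highest non-TRAMP value was that of library 35 and rested on 7 reads, and without that library the effect was -0.65 (adjusted p = 0.0029). miR-34b-5p passed the threshold narrowly with -0.54 ± 0.22 (adjusted p = 0.032). That call was lost when library 1, 2, 4, 7, 28 or 33 was left out (effects from -0.52 to -0.40, adjusted p from 0.0501 to 0.102), with size factor scaling (-0.38, adjusted p = 0.0648), without the filter (adjusted p = 0.0712), with edgeR (adjusted p = 0.0694) and with DESeq2 (adjusted p = 0.0965).

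At 30 weeks miR-34c-5p was at 30.5, 94.6 and 68.9 CPM in WT, 59.0, 38.0 and 49.4 CPM in KO and 55.1, 57.4 and 55.1 CPM in A537T. With TRAMP it reached 307, 126 and 199 CPM in WT-TRAMP, 142, 166 and 160.1 CPM in KO-TRAMP and 95.6, 148 and 103 CPM in A537T-TRAMP. All 9 TRAMP libraries lay above all 9 non-TRAMP libraries, though by only 1.0 CPM between the nearest pair (95.6 against 94.6 CPM). The effect was 1.47 ± 0.24 (adjusted p = 1.55e-05), a 2.85-fold difference of the means. miR-34b-5p rose by 1.10 ± 0.22 (adjusted p = 0.000146), with 6 of 9 TRAMP libraries above every non-TRAMP library. For miR-34b-3p the effect was 0.74 ± 0.17 (adjusted p = 0.000999) and for miR-34c-3p 0.72 ± 0.21 (adjusted p = 0.00514), each with 7 of 9 TRAMP libraries above all others. These 4 calls held when any 1 library was left out.

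miR-449a-5p rose with TRAMP at both ages. At 10 weeks it was at 2.33, 2.00 and 0.760 CPM in WT, 2.42, 2.50 and 2.97 CPM in KO and 1.24, 6.10 and 2.60 CPM in A537T, the 6.10 CPM of library 35 resting on 4 reads. With TRAMP it was at 25.7, 13.9 and 10.2 CPM in WT-TRAMP, 8.80, 9.04 and 11.9 CPM in KO-TRAMP and 10.5, 8.37 and 8.91 CPM in A537T-TRAMP. All 9 TRAMP libraries were above all 9 non-TRAMP libraries. The effect was 1.88 ± 0.42 (adjusted p = 0.000348), against a median of -0.28 over all miRNAs, and the ratio of the means was 4.68.

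At 30 weeks the level without TRAMP was 0.469, 0.894 and 0.366 CPM in WT, 1.83, 0.412 and 1.53 CPM in KO and 2.33, 0.433 and 2.05 CPM in A537T. With TRAMP it was 9.85, 5.40 and 7.05 CPM in WT-TRAMP, 1.95, 106 and 69.3 CPM in KO-TRAMP and 10.9, 9.13 and 6.37 CPM in A537T-TRAMP. The KO-TRAMP group thus held both the lowest TRAMP library (16) and the 2 highest libraries of the whole series (17 and 18), and its mean was 59.1 ± 52.8 CPM (SD, n = 3). The effect as the mean of the lines was 2.69 ± 0.42 (adjusted p = 5.97e-06). Without libraries 17 and 18, an alternative chosen after seeing the data in which KO-TRAMP was represented by library 16 alone, it was 1.61 (adjusted p = 1.28e-05), and without library 16 it was 3.23.

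The other products of the Mir449 cluster showed the same 2 libraries. miR-449a-3p was at 0.266, 2.27 and 2.50 CPM in KO-TRAMP libraries 16, 17 and 18 (3, 28 and 39 reads), and in the other 33 libraries it had no more than 1 read. miR-449c-5p was at 0.444, 10.1 and 6.98 CPM there (5, 124 and 109 reads), and at most at 0.911 CPM in any other library. Fitted without the filter, the TRAMP effect at 30 weeks was 0.43 ± 0.11 for miR-449a-3p (adjusted p = 0.0042) and 0.98 ± 0.23 for miR-449c-5p (adjusted p = 0.00235). These fits understate changes of strands below 1 CPM, because 1 CPM was added to each value. In the same 3 libraries the stroma and smooth muscle miRNAs (5 strands, mostly miR-143-3p) took 6.36%, 34.4% and 24.7% of reads, the neuroendocrine list (miR-375, miR-7a, miR-9 and miR-124) 0.563%, 1.87% and 1.49%, the skeletal muscle list 0.187%, 0.937% and 0.615%, and the testis and epididymis cluster 0, 0.811 and 0.320 CPM with 12, 8 and 9 of its 12 miRNAs at 0. One skeletal muscle strand, miR-499-5p, picked out after its values were seen, was at 0.799, 621 and 399.7 CPM in libraries 16, 17 and 18, at most at 3.58 CPM in the other TRAMP libraries and at up to 106 CPM in a WT library at 10 weeks. The part of these lists in the miR-449 levels was not tested.

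**Figure D2:**
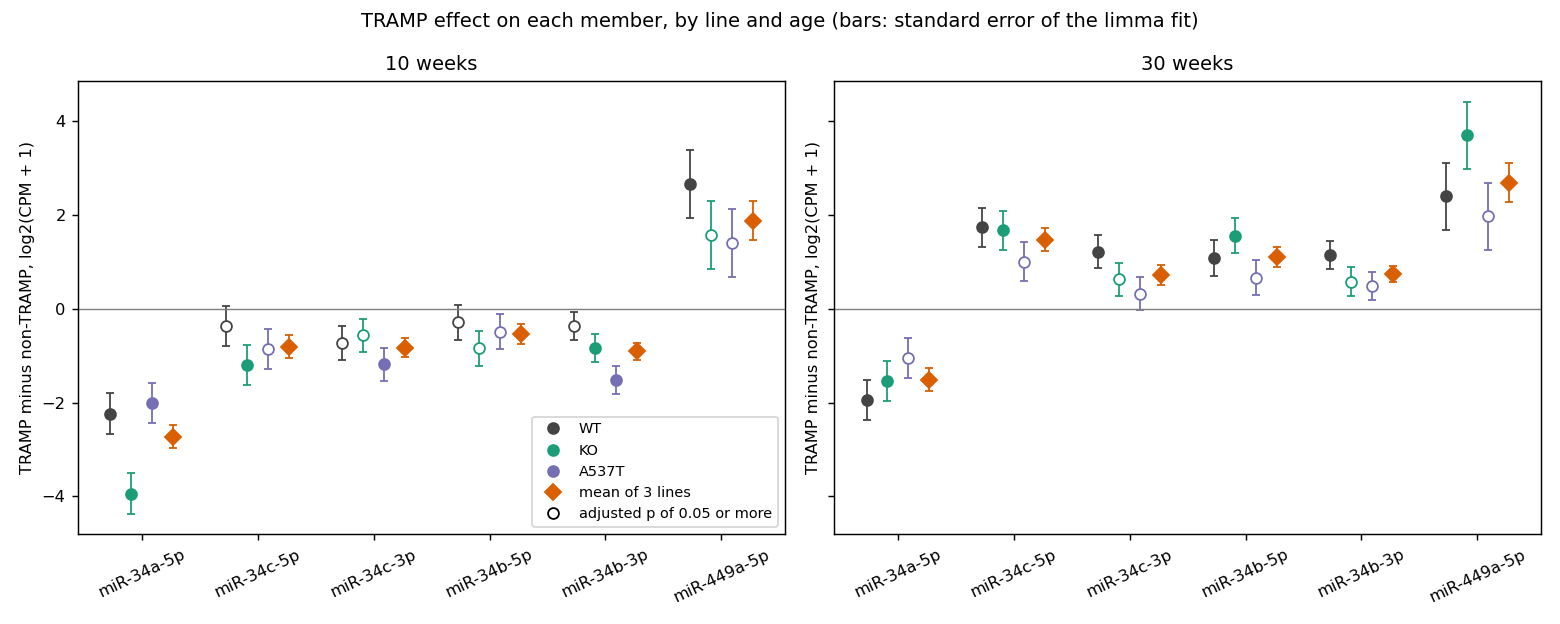
TRAMP effect (difference of group means on the log2(CPM + 1) scale, vertical axis) on each of 6 members at 10 and 30 weeks; circles are the 3 lines, diamonds their mean, bars the standard error of the fit over 36 libraries, and open symbols an adjusted p of 0.05 or more. miR-34a-5p lay below and miR-449a-5p above 0 in all 3 lines at both ages, while the 4 strands of Mir34b and Mir34c lay below 0 at 10 weeks and above 0 at 30 weeks in all 3 lines.

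Within single lines, 3 libraries against 3, the directions were alike and fewer members passed. At 10 weeks the WT line had miR-34a-5p (-2.24 ± 0.43) and miR-449a-5p (2.66 ± 0.72) past the threshold, where 34% of all miRNAs passed. edgeR and DESeq2 also called miR-34c-3p there (-1.22, adjusted p = 0.0313, and -1.18, adjusted p = 0.0337). The KO line had miR-34a-5p (-3.94 ± 0.43), miR-34c-5p (-1.20 ± 0.42) and miR-34b-3p (-0.84 ± 0.30), against 42.8% of all miRNAs. The A537T line had miR-34a-5p (-2.01 ± 0.43), miR-34b-3p (-1.52 ± 0.30) and miR-34c-3p (-1.18 ± 0.36), against 35%. In this fit miR-34a-5p alone passed in all 3 lines. miR-449a-5p also passed in KO and in A537T with edgeR (2.15 and 2.18) and with DESeq2 (2.32 and 2.10), and in the limma fit without library 16 (1.58, adjusted p = 0.00223, and 1.40, adjusted p = 0.00605). In the KO line miR-34c-5p was no longer called without library 7, 32 or 33 (-0.75, -1.19 and -1.15), nor miR-34b-3p without library 7, 31 or 33 (-0.57, -0.77 and -0.85) or with edgeR or DESeq2 (-0.72 and -0.59), and in the A537T line miR-34c-3p was not called without library 4 or 35 (-1.04 and -0.66). In the WT line the direction of miR-34c-5p and of miR-34b-5p, neither of them called, turned positive without library 28 (0.18 and 0.12).

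At 30 weeks all 6 members passed in the WT line, where 30.2% of all miRNAs did: miR-34a-5p at -1.94 ± 0.43 and the other 5 upward, from 1.08 ± 0.38 for miR-34b-5p to 2.40 ± 0.72 for miR-449a-5p. miR-34b-5p, miR-34b-3p, miR-34c-3p and miR-449a-5p lost their call in WT without library 10 (0.77, 0.84, 1.02 and 2.20), which held the highest WT-TRAMP value of each, miR-34b-5p also without library 12, 19 or 21 (1.07, 0.69 and 1.11) and miR-449a-5p without library 21 (2.30). In the KO line 4 members passed, against 35.8% of all miRNAs: miR-34a-5p (-1.54 ± 0.43), miR-34b-5p (1.56 ± 0.38), miR-34c-5p (1.67 ± 0.42) and miR-449a-5p (3.70 ± 0.72). None of these 4 passed when library 16 alone stood for KO-TRAMP (-1.28, 1.36, 1.54 and 0.45). In the A537T line none of the 6 passed, where 10.9% of all miRNAs did. There miR-34a-5p was at -1.05 ± 0.43 (adjusted p = 0.122), miR-34c-5p at 1.01 ± 0.42 (adjusted p = 0.135) and miR-449a-5p at 1.98 ± 0.72 (adjusted p = 0.0795). 3 of the 6 were under an unadjusted p of 0.05, miR-34a-5p passed with edgeR (-1.18, adjusted p = 0.0324) and DESeq2 (-1.20, adjusted p = 0.0106), miR-449a-5p with both (2.25, adjusted p = 0.0354, and 2.30, adjusted p = 0.00793) and miR-34c-5p with DESeq2 (0.90, adjusted p = 0.0336). miR-449a-5p also passed without library 16 or 17, KO-TRAMP libraries that enter here through the shared spread (adjusted p = 0.000435 and 0.0379).

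Whether the TRAMP effect differed between lines was tested directly. None of the 6 members past the filter passed in any of the 4 comparisons of the TRAMP effect in KO or A537T with that in WT, in which 0.389%, 0%, 7.98% and 0% of all miRNAs passed (KO and A537T at 10 weeks, then at 30 weeks). The differences ranged from -1.71 to 1.30, and 2 of the 24 had an unadjusted p under 0.05. The nearest to the threshold was miR-34a-5p in KO at 10 weeks, whose TRAMP effect was stronger than in WT by -1.71 ± 0.61 (adjusted p = 0.191), and which passed without library 28 (-2.06, adjusted p = 0.0473). For miR-449a-5p at 30 weeks the effect in KO exceeded that in WT by 1.30 ± 1.02 (adjusted p = 0.508), by 2.93 without library 16 (adjusted p = 0.000605), and fell short of it by -1.95 without libraries 17 and 18. Fitted without the filter, miR-449a-3p passed in that comparison (1.29 ± 0.26, adjusted p = 0.0167), on the reads of those 2 libraries.

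The change of the TRAMP effect with age was itself tested, as the difference between both TRAMP effects averaged over the lines. It was upward for 5 of 6 members, where 37.2% of all miRNAs passed, 28.2% upward, and the median of all was 0.29. miR-34c-5p changed most, by 2.28 ± 0.35 (adjusted p = 4.09e-05). miR-34b-3p changed by 1.65 ± 0.25 (adjusted p = 4.09e-05), miR-34b-5p by 1.64 ± 0.31 (adjusted p = 0.000233) and miR-34c-3p by 1.55 ± 0.29 (adjusted p = 0.000232), so that the sign of the TRAMP effect turned for the whole chromosome 9 locus. For miR-34a-5p the fall was smaller at 30 weeks by 1.21 ± 0.35 (adjusted p = 0.00903). miR-449a-5p differed by 0.81 ± 0.59 (adjusted p = 0.279). Without library 16 that difference was 1.35 (adjusted p = 0.00129), and without libraries 17 and 18 it was -0.27.

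The same data read by age show where the levels moved. With TRAMP, 5 of 6 members rose from 10 to 30 weeks, where 27.4% of all miRNAs passed, 20.2% upward, and the median of all was 0.11. miR-34c-5p rose by 1.85 ± 0.24 (adjusted p = 2.32e-06), from a mean of 43.6 to 161 CPM, miR-34b-3p by 1.51 ± 0.17, miR-34c-3p by 1.41 ± 0.21, miR-34b-5p by 1.38 ± 0.22 and miR-34a-5p by 1.18 ± 0.25 (adjusted p = 0.000897), from 39.2 to 85.6 CPM. miR-449a-5p stood at 0.10 ± 0.42 (adjusted p = 0.881) and passed upward without library 16 (0.64, adjusted p = 0.0287) and downward without libraries 17 and 18 (-0.99, adjusted p = 0.00783). Without TRAMP, none of the 6 members passed with limma between the ages, where 33.5% of all miRNAs did, none of the 6 had an unadjusted p under 0.05, and the estimates ran from -0.71 ± 0.42 for miR-449a-5p to -0.03 ± 0.25 for miR-34a-5p. miR-449a-5p passed there without library 16 (adjusted p = 0.0116) and miR-34c-5p without library 30 (-0.60, adjusted p = 0.0422).

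Within each library the balance of miR-34c-5p and miR-34a-5p does not depend on the library total. Without TRAMP miR-34a-5p exceeded miR-34c-5p in 18 of 18 libraries, with 0.212 to 0.609 miR-34c-5p reads per miR-34a-5p read at 10 weeks and 0.162 to 0.344 at 30 weeks. With TRAMP the ratio was 0.422 to 2.12 at 10 weeks and 0.885 to 4.04 at 30 weeks, and miR-34c-5p was the more abundant in 12 of 18 libraries (5 of 9 and 7 of 9). At 30 weeks the WT-TRAMP libraries were at 4.04, 2.10 and 3.04, the KO-TRAMP libraries at 1.58, 2.61 and 2.23 and the A537T-TRAMP libraries at 0.885, 0.917 and 1.38.

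The mean log2 ratio at 10 weeks was 0.22 ± 0.76 with TRAMP and -1.72 ± 0.55 without (SD, n = 9 each), a difference of 1.94 (exact permutation test within lines, two-sided p = 0.00075 over 8000 arrangements, also 0.00075 after adjustment over both ages). At 30 weeks it was 0.89 ± 0.75 with TRAMP and -2.12 ± 0.35 without, a difference of 3.02 (exact permutation p = 0.00025, the smallest these arrangements can give, 0.0005 adjusted). The ranges overlapped at 10 weeks and did not at 30 weeks.

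**Figure D3:**
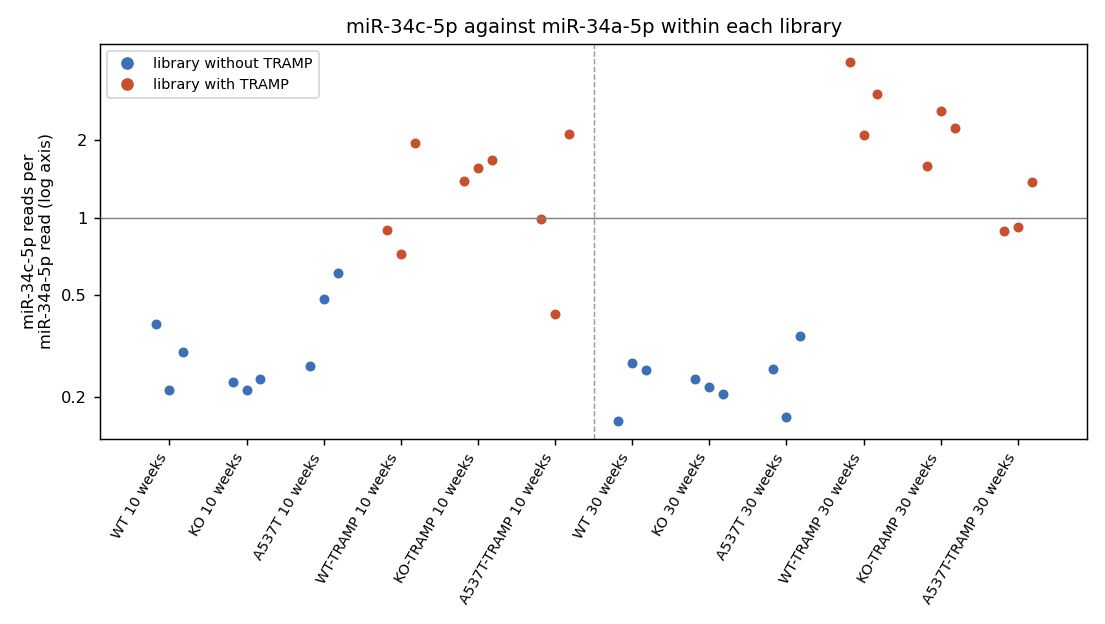
Reads of miR-34c-5p per read of miR-34a-5p (vertical log axis) in each of the 36 libraries, by group; each point is a library, blue without and orange with TRAMP, the horizontal line marks equal reads and the dashed line separates 10 from 30 weeks. All 18 libraries without TRAMP lie below 1, and 12 of the 18 with TRAMP lie above it.

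The 5p strands that carry or are assigned the family's seed (miR-34a, miR-34b, miR-34c, miR-449a, miR-449b and miR-449c) were summed into a pool. This pool was lower on average with TRAMP at 10 weeks and similar at 30 weeks, and its makeup differed. At 10 weeks it held 114 to 586 CPM without TRAMP (mean 362 ± 164, n = 9) and 48.6 to 133 CPM with it (98.2 ± 27.4, n = 9). At 30 weeks it held 214 to 449.9 CPM without (305 ± 84.0) and 192 to 409 CPM with TRAMP (283 ± 75.5), ranges that overlapped almost entirely. No test is given for this sum of chosen members.

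The makeup of the pool differed at both ages. miR-34a-5p made up 59.9% to 81.2% of it at 10 weeks and 72.3% to 85.1% at 30 weeks without TRAMP, against 27.99% to 64.3% and 17.8% to 49.2% with TRAMP. miR-34c-5p made up 17.2% to 36.5% and 13.8% to 24.9% without TRAMP, against 27.2% to 59.2% and 43.0% to 75.1% with it. miR-449a-5p took at most 2.35% without TRAMP and between 6.27% and 20.1% with TRAMP at 10 weeks. At 30 weeks it took 29.7% and 21.8% in KO-TRAMP libraries 17 and 18 and 0.807% to 4.89% in the other 7 with TRAMP. miR-34b-5p took at most 4.59% and miR-449c-5p at most 2.82% in any library, and miR-449b had 2 reads in all.

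**Figure D4:**
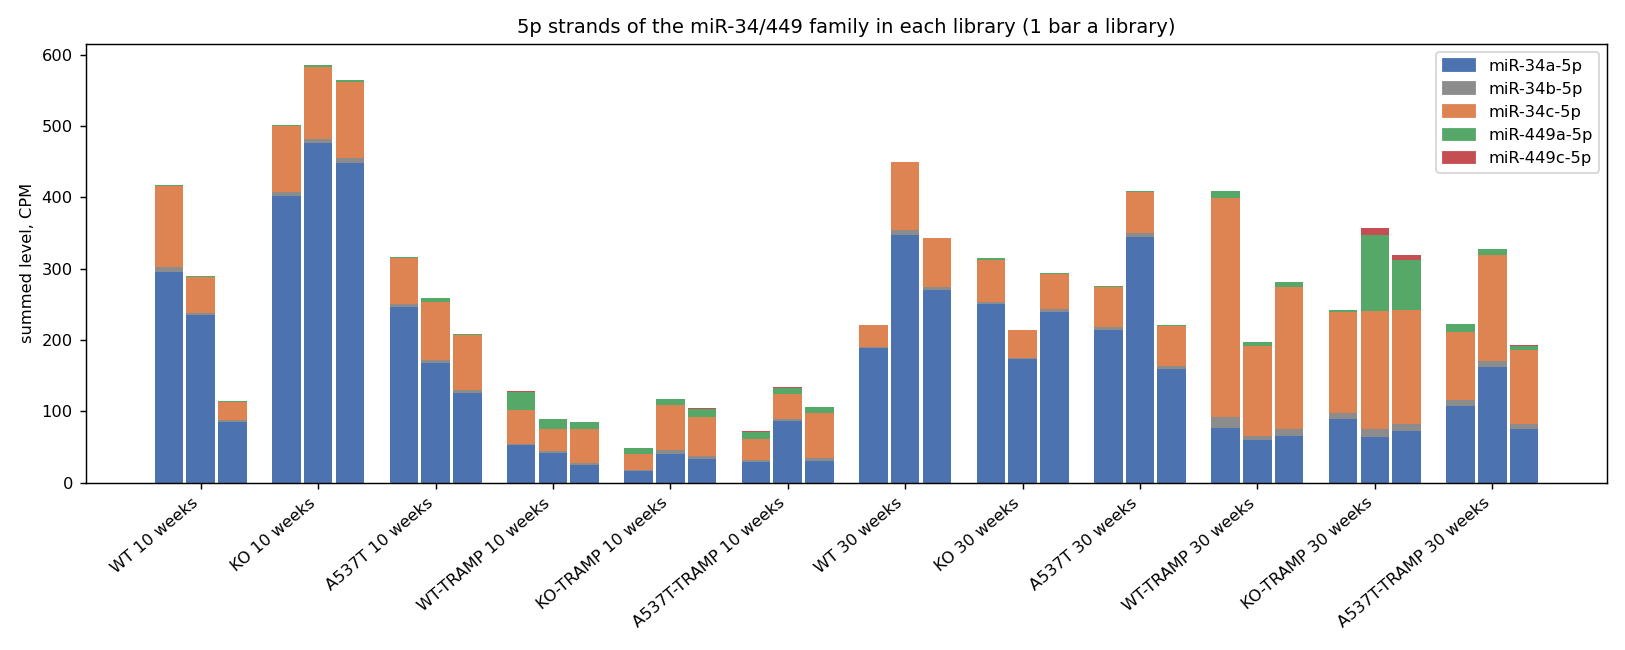
Summed level of the 5p strands of the family in CPM (vertical axis, from 0), 1 bar a library, stacked by member and grouped by the 12 groups. Without TRAMP the blue miR-34a-5p part fills most of each bar, at 10 weeks with TRAMP the bars are 48.6 to 133 CPM high, and at 30 weeks with TRAMP the orange miR-34c-5p part is the largest in 7 of 9 bars, with green miR-449a-5p wide in 2 KO-TRAMP libraries.

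The strands of the 2 hairpins of chromosome 9 ran together. miR-34c-5p had 10.2 to 23.7 times the reads of miR-34b-5p over the 36 libraries, with a median of 15.4, and medians of 16.04, 13.6, 15.6 and 16.1 at 10 weeks without and with and at 30 weeks without and with TRAMP. The miR-34b-5p strand resembles miR-34c-5p closely, so that part of its reads may belong to the far more abundant strand, which was not tested. The arms were less even: miR-34c-5p had 7.57 to 54.5 times the reads of miR-34c-3p, and miR-34b-5p 0.264 to 1.47 times those of miR-34b-3p, so that for Mir34b the 3p strand was usually the more abundant.

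For the ELAC2 lines the question was whether deletion or the A537T substitution altered the family within an age and a TRAMP status. None of the 6 members past the filter passed in any of the 8 comparisons with limma, and 8 of 48 tests had an unadjusted p under 0.05. The shares of all miRNAs that passed were 3.89% for KO at 10 weeks, 0.195% for A537T at 10 weeks, 0.584% for KO at 30 weeks, 6.23% for KO-TRAMP at 30 weeks and 0% in the other 4. miR-34a-5p in KO against WT at 10 weeks came nearest, with 441.9 ± 37.4 against 205 ± 108 CPM and a difference of 1.28 ± 0.43 (adjusted p = 0.0977). Without library 28 it passed (1.63, adjusted p = 0.0183), together with miR-34c-5p (1.45, adjusted p = 0.0194) and miR-34b-5p (1.11, adjusted p = 0.0472). The 3 WT libraries there held 9.73%, 19.05% and 30.7% muscle miRNA reads and the KO libraries 0.773%, 6.51% and 0.736%. The stroma and smooth muscle miRNAs took 7.21% to 30.4% of reads in WT and 30.5% to 36.1% in KO. The part of either in the difference was not tested.

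In KO-TRAMP against WT-TRAMP at 30 weeks miR-34b-3p was lower by -0.81 ± 0.30 (adjusted p = 0.11) and miR-449a-5p higher by 1.77 ± 0.72 (adjusted p = 0.145). Tests on the recovered reads called both, miR-34b-3p at -1.08 with edgeR (adjusted p = 0.0156) and -1.01 with DESeq2 (adjusted p = 0.00548), and miR-449a-5p at 2.81 (adjusted p = 0.0128) and 2.92 (adjusted p = 0.000616). Without library 16 miR-449a-5p was at 3.397 (adjusted p = 6.37e-07), and without libraries 17 and 18 at -1.48. Fitted with limma without the filter, miR-449a-3p differed there by 1.29 ± 0.19 (adjusted p = 0.000131) and miR-449c-5p by 2.06 ± 0.39 (adjusted p = 0.00498). miR-449c-3p differed by 0.13 ± 0.0297 (adjusted p = 0.0179), on 4 reads in 2 KO-TRAMP libraries and 0 in WT-TRAMP. miR-449a-3p had 0 reads in WT-TRAMP and 70 in KO-TRAMP, and miR-449c-5p had 11 and 238. Most of these values lie at the limit of detection, and the share of all miRNAs called in the unfiltered fit is not given. DESeq2 also called miR-34b-3p in A537T-TRAMP against WT-TRAMP at 30 weeks (-1.17, adjusted p = 0.00748).

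Other miRNAs tied to p53 did not move as 1 group. A list held 11 strands known to be raised or matured under p53, 4 of which are also in the stroma or the epithelium list. Of these 11, 5 were called higher and 4 lower with TRAMP at 10 weeks, and 5 and 3 at 30 weeks. Of all miRNAs 25.5% were called higher and 39.9% lower at 10 weeks, and 28.8% and 16.3% at 30 weeks. The medians of the list were 0.20 and 0.16, beside -0.28 and 0.07 over all miRNAs. miR-145a-5p, a smooth muscle miRNA, fell at both ages (-1.43 ± 0.33 and -1.21 ± 0.33, adjusted p = 0.0041 at 30 weeks). miR-143-3p, its neighbour, fell at 10 weeks (-0.95 ± 0.31, adjusted p = 0.0093). miR-16-5p, which targets cyclins, rose at both ages (0.68 ± 0.13 and 1.15 ± 0.13), as did miR-141-3p of the miR-200 family (0.93 ± 0.13 and 0.53 ± 0.13). miR-143-3p and miR-145a-5p are themselves in the stroma list, and miR-143-3p makes up most of its sum. The list is thus no separate measure of them. All 5 strands of the list fell at 10 weeks, and their summed share was 7.21% to 40.2% of reads without and 7.59% to 22.8% with TRAMP. At 30 weeks miR-145a-5p alone of the stroma list passed. miR-143-3p did not (-0.52 ± 0.31, adjusted p = 0.18), nor did miR-199a-5p at 0.15, miR-199ab-3p at -0.07 and miR-214-3p at 0.02. The part of tissue makeup was not tested.

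miRNAs of the clusters induced by E2F, Mir17 to Mir92 and Mir106b to Mir25, were all higher with TRAMP. All 9 listed strands were called higher at 10 weeks and all 9 at 30 weeks, beside 25.5% and 28.8% of all miRNAs. The medians of the list were 1.29 and 1.88, and its smallest changes were those of miR-92a-3p (0.34 ± 0.11 and 0.41 ± 0.11). miR-25-3p rose by 2.27 ± 0.11 and 2.08 ± 0.11, miR-93-5p by 1.70 ± 0.11 and 1.88 ± 0.11, miR-19a-3p by 1.61 ± 0.14 and 2.51 ± 0.14 and miR-106b-5p by 1.29 ± 0.22 and 2.13 ± 0.22. miR-449a-5p, with 1.88 and 2.69, lay within the range of the list at 10 weeks. At 30 weeks it lay above the highest value of the list (2.51, miR-19a-3p). Its value at 30 weeks, 1.61 without libraries 17 and 18, rested on them in part. The part of E2F in any of these changes was not tested. Summed, the list took 0.186% to 0.272% of reads at 10 weeks without TRAMP and 0.489% to 0.793% with it, ranges that did not overlap.

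**Figure D5:**
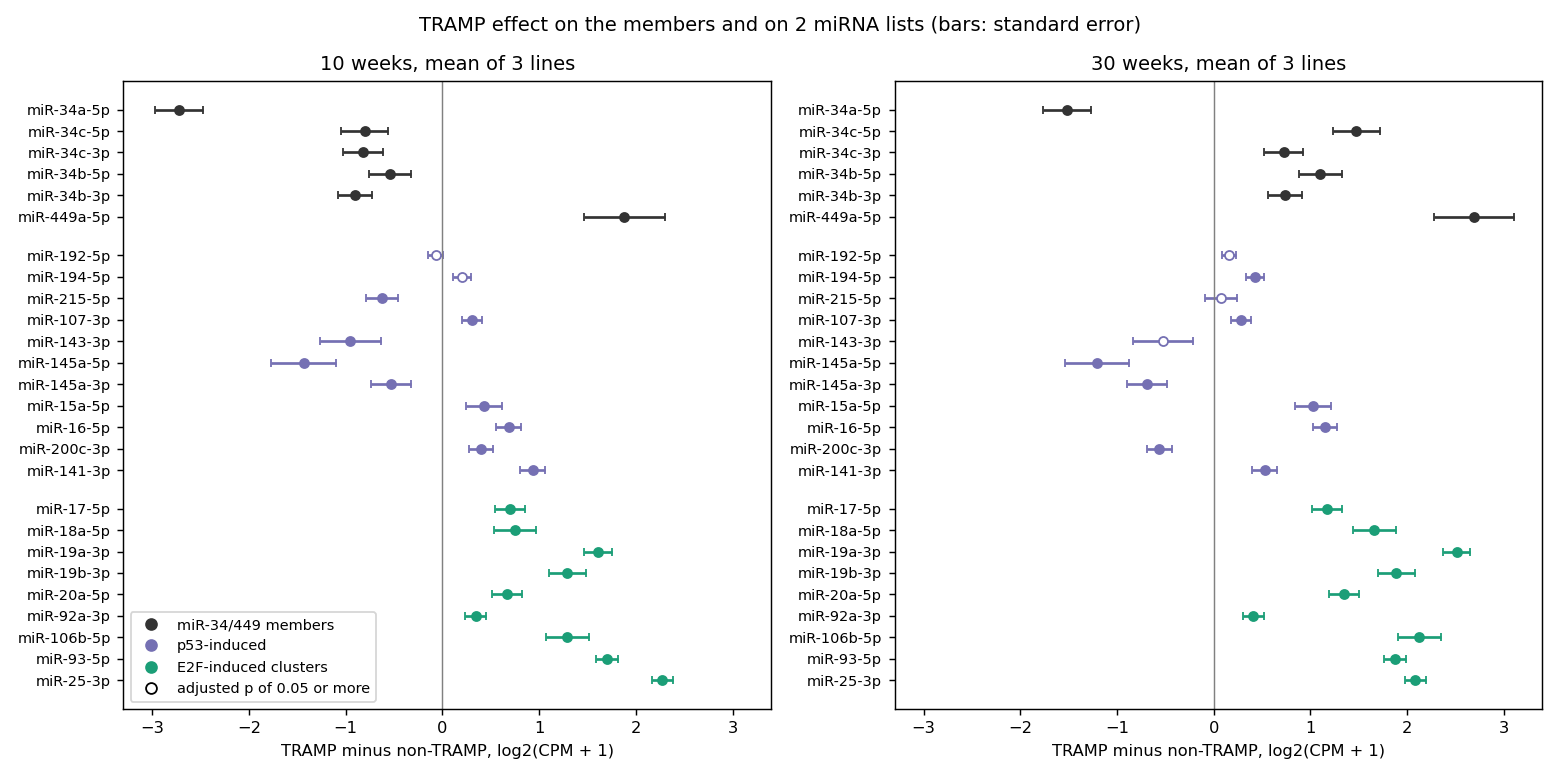
TRAMP effect as the mean of the 3 lines (horizontal axis, log2(CPM + 1) scale, bars the standard error) on 6 members, 11 p53-induced and 9 E2F-induced strands at 10 and at 30 weeks; open symbols have an adjusted p of 0.05 or more. All 9 E2F-induced strands lie to the right of 0 at both ages, the p53-induced strands lie on both sides, and miR-34a-5p is the lowest point of both panels.

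Over the 36 libraries the miRNAs whose levels ran most like each locus were looked for among 295 others with a mean of at least 10 CPM, as a description with no test, since TRAMP and age groups shape every such likeness. Closest to miR-34a-5p were miR-500-3p (Pearson r = 0.87), miR-3102-3p (0.87) and miR-187-3p (0.86). Closest to miR-34c-5p were the 2 strands of miR-132, miR-132-3p (r = 0.84) and miR-132-5p (0.79), and miR-135b-5p (0.78). Closest to miR-449a-5p were miR-32-5p (r = 0.87), miR-203-3p (0.83) and miR-15b-3p (0.82). miR-32-5p was at 10.3 to 28.4 CPM in the libraries without TRAMP. It reached 129 and 117 CPM in KO-TRAMP libraries 17 and 18, the same 2 in which miR-449a-5p was highest. In the other TRAMP libraries it was at 39.6 to 77.9 CPM, with 74.9 CPM in library 16.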

How the data were processed

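The deposited tables hold normalised counts per mature miRNA. According to the study's methods the authors sequenced small RNA libraries (TruSeq kit, per the labels) on an Illumina NovaSeq, merged read pairs with BBMerge, mapped and counted with mirDeep2 against GRCm38 and miRBase, and normalised with DESeq2 separately in each of 8 tables; the deposited values are thus a signal, read numbers over each library's DESeq2 size factor. All values (100%, tolerance 0.01) were whole multiples of 1 read, so reads were recovered, and the 12 control columns present in 2 tables held identical reads and were used once. Tables of the authors' own comparisons were not used. Columns carry a library number, so groups were taken from the tables that hold them, and libraries are named by number.

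Each library was divided by its sum (CPM). limma 3.58.1 (R 4.3.3) with a variance trend was fitted to log2(CPM + 1) of the 514 miRNAs with a mean of at least 1 CPM, with 12 group means over 36 libraries. Benjamini-Hochberg adjustment ran over all miRNAs in each of 23 comparisons, with a threshold of 0.05. Fold changes on this scale understate those of low miRNAs. The fit was also run on simulated reads with a single spread setting for all miRNAs, unlike these data. No result here rests on that run. Alternatives were other pseudocounts, filters, scalings and weights, edgeR 4.0.16 and DESeq2 1.42.0 on the recovered reads, and leaving out each library. Ratios within libraries were compared by exact permutation within lines. All 7 members are named, up to 4 called miRNAs a list, largest change first, and the 3 most like each locus. Members, lists and comparisons were chosen with earlier results of these data known.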

Additional observations from a re-analysis of the deposited data

Results flagged for a closer look

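The TRAMP effect differed between 10 and 30 weeks for 5 of the 6 members tested, by the test of the difference itself in the fit over all 514 miRNAs (limma, adjusted over all of them). For miR-34a-5p the fall with TRAMP was smaller at 30 weeks by 1.21 on the log2(CPM + 1) scale. For the 4 strands of Mir34b and Mir34c the effect turned from a fall to a rise, by 1.65 for miR-34b-3p, 1.64 for miR-34b-5p, 1.55 for miR-34c-3p and 2.28 for miR-34c-5p. The median difference of all miRNAs was 0.29, and 0.01 with size factor scaling, under which the 5 members differed by 0.89, 1.36, 1.38, 1.30 and 1.96 in the same order and all passed. Of all miRNAs 37.2% passed in this comparison, 28.2% upward and 8.95% downward. Lists of other cell types moved with it too. All 6 skeletal muscle strands passed upward (median 3.14), as did 3 of 4 leukocyte strands (0.99) and 3 of 5 stroma strands (0.64). Of the epithelial strands 5 of 7 passed downward (-0.76). The part of these lists in the members' difference was not tested. Without the 3 libraries above 10% muscle reads the 5 members differed by 1.36, 1.88, 1.93, 1.85 and 2.67.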

How the results depend on the processing

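No paired analysis was possible because the columns carry library numbers and not the replicate numbers of the labels. The number of members called was 6 for the TRAMP effect at 10 weeks and 6 at 30 weeks, 18 of 36 within lines, 0 for age without TRAMP, 5 for age with TRAMP, 5 for the TRAMP by age difference, and 0 for the line differences and for the ELAC2 comparisons. With the filter at 10 CPM, which leaves 3 members, the counts were 3, 3, 11, 2 (age with TRAMP) and 2 (TRAMP by age). For age without TRAMP 1 member was called with array weights, with only the libraries of the comparison, without libraries 17 and 18 and without the 3 libraries rich in muscle reads. Array weights, whose estimation did not converge, called 6 line differences and 15 ELAC2 tests. The ELAC2 comparisons gave 2 calls with a pseudocount of 5, 1 with size factor scaling, 2 with edgeR and 3 with DESeq2. Leaving out each library gave 5 to 6, 6 to 6, 14 to 21, 0 to 1, 5 to 6, 5 to 6, 0 to 1 and 0 to 3 calls in the same order. The shares of all miRNAs called under these alternatives are not given. The counts thus do not set the members apart from the rest. The miR-34c-5p to miR-34a-5p difference ranged from 1.75 to 2.14 at 10 weeks (p at most 0.0015) and from 2.92 to 3.10 at 30 weeks, and kept its side of the threshold with a pseudocount of 1 CPM.

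Directions turned only for estimates that had not passed. For age without TRAMP, size factor scaling, edgeR and DESeq2 gave 0.17, 0.0348 and 0.14 for miR-34a-5p (-0.21 to 0.0855 without single libraries, above 0 without 19, 23, 27, 28, 29 or 34), size factor scaling and DESeq2 0.0419 and 0.10 for miR-34b-3p, and size factor scaling, array weights and DESeq2 0.00711, 0.0944 and 0.0936 for miR-34c-3p (-0.28 to 0.0315 without single libraries, above 0 without 35). For miR-449a-5p, age with TRAMP gave -0.0232 with size factor scaling, -0.22 to 0.64 without single libraries (below 0 without 17 or 18) and -0.99 without both, which passed; without both, the TRAMP by age difference was -0.27, KO-TRAMP against WT-TRAMP -1.48 and the KO minus WT difference -1.95. In WT at 10 weeks miR-34b-5p ran from -0.57 to 0.12 and miR-34c-5p from -0.88 to 0.18 without single libraries, above 0 without 28. The cause of these changes was not tested. No averaged TRAMP effect of the 6 members changed direction under any alternative; miR-34b-5p at 10 weeks alone lost its call. With size factor scaling the median of all miRNAs at 10 weeks was -0.13 in place of -0.28. Strands at or under 3 reads in a library (0.137 to 4.58 CPM by depth) are at the limit of detection, and intervals from reads would cover counting error only.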

Other observations

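The passenger strand of Mir34a, miR-34a-3p, was too low for the filter (196 reads in all, found in 33 libraries). At 10 weeks it was at 0.0585 to 1.53 CPM without TRAMP and at 0 to 0.364 CPM with it, the highest non-TRAMP value resting on 1 read of library 35. Fitted without the filter, it fell with TRAMP at 10 weeks by 0.64 ± 0.13 (limma, adjusted p = 0.000383), and at 30 weeks it stood at -0.22 ± 0.13 (adjusted p = 0.281). Its 3 KO libraries at 10 weeks, at 1.35, 1.13 and 1.08 CPM, were the highest with more than 1 read, as they were for miR-34a-5p.

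Among the 4 leukocyte miRNAs, miR-142a-3p and miR-142a-5p, which mark blood cells, rose with TRAMP at both ages (1.03 ± 0.20 and 2.38 ± 0.20, and 1.18 ± 0.18 and 1.51 ± 0.18), while miR-223-3p, a myeloid miRNA, fell at 10 weeks (-1.04 ± 0.17) and stood at 0.28 ± 0.17 at 30 weeks. miR-150-5p, a lymphocyte miRNA, fell at 10 weeks (-0.57 ± 0.19) and stood at 0.10 ± 0.19 at 30 weeks. The summed list was at 181 to 398 CPM without and 257 to 695 CPM with TRAMP at 10 weeks, and at 209 to 574 and 608 to 1578 CPM at 30 weeks. Of the epithelial miRNAs, miR-205-5p, a marker of basal cells, fell at both ages (-0.72 ± 0.18 and -1.54 ± 0.18). It was the exception at 10 weeks, where every other strand of that list was called higher, from miR-200c-3p (0.399) to miR-141-3p (0.932). At 30 weeks miR-203-3p (1.196), miR-141-3p (0.528) and miR-200a-3p (0.469) were called higher and miR-200c-3p lower (-0.56). miR-200b-3p and miR-429-3p did not pass at 30 weeks. Of the neuroendocrine list, miR-7a-5p rose at both ages (0.51 ± 0.16 and 0.61 ± 0.16), and miR-375-3p, miR-9-5p and miR-124-3p did not pass.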
